A study of Mus musculus with 10 samples.

Results

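The transcripts described here encode the core machinery that divides and joins mitochondria, measured in inguinal white adipose tissue of mice lacking PexRAP in fat. The 10 genes were taken by name. The fission side comprised Dnm1l, Mff, Fis1, Mief1, Mief2 and Tmem135, and the fusion GTPases Mfn1, Mfn2 and Opa1. Oma1, the gene of a protease that cleaves OPA1, was grouped with the fusion GTPases without being one of them. All 10 were found among the 40501 gene identifiers of the count table, and all 10 were among the 14913 genes tested. Their counts ran from 154 (Oma1) to 7637 (Mfn2) per library. The tissue is a subcutaneous fat depot, and the RNA came from male mice on chow, with 5 RNA-seq libraries per group. The Control group was Cre-negative and the PexRAP-AKO group Cre-positive, with PexRAP (ADHAPR, the product of Dhrs7b) deleted in adipose tissue on a C57/BL6J background. The labels give 8 weeks both as the length of chow feeding and as the age of the mice. The sources used here do not name the promoter that drives Cre or the floxed allele, or say whether each library came from its own animal. The p-values therefore measure the spread between these libraries. In bulk tissue, fewer cells of a type and less RNA per cell cannot be told apart.

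Mitochondria divide when DRP1, the dynamin-related GTPase encoded by Dnm1l, assembles around the outer membrane and constricts it. DRP1 is drawn from the cytosol by the receptors MFF, FIS1, MiD51 (Mief1) and MiD49 (Mief2), and TMEM135, a multi-pass membrane protein of mitochondria and peroxisomes, has been linked to fission and, in fat, to thermogenesis. Fusion runs through the mitofusins MFN1 and MFN2 at the outer membrane and the GTPase OPA1 at the inner membrane, where the stress-activated protease OMA1 cleaves OPA1. DRP1, MFF and FIS1 also divide peroxisomes, the organelles that start the ether lipid synthesis to which PexRAP contributes. In adipocytes, mitochondrial shape differs between thermogenic and lipid-storing cells.

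Library totals ran from 11593437 to 19881168 counts in Control and from 11274865 to 16513769 in PexRAP-AKO. Levels are given as CPM, read counts scaled to library size with TMM factors, and a log2 fold change is PexRAP-AKO over Control. Dhrs7b (chr11:60830631-60860195, plus strand), the deleted gene, stood at 95.8, 61.2, 85.9, 86.0 and 83.2 CPM in Control replicates 2, 3, 5, 7 and 8, and at 22.8, 19.1, 18.0, 21.8 and 17.9 CPM in PexRAP-AKO replicates 1, 2, 3, 5 and 6. Every library matched its label, and Dhrs7b fell by 2.05 on the log2 scale (SE 0.12, adjusted p = 1.54e-05, edgeR quasi-likelihood F test with Benjamini-Hochberg adjustment). White adipocyte markers were abundant in all libraries, with a summed level of 36993 to 49232 CPM in Control and 35379.5 to 46593 CPM in PexRAP-AKO. Of these 10 markers, 8 had a fold change below 1. Cfd, which encodes the secreted protease adipsin, had means of 13973 ± 1877 and 10077 ± 667 CPM (SD, 5 Control and 5 PexRAP-AKO libraries) without overlap, a log2 fold change of -0.47 (adjusted p = 0.135 in edgeR and 0.000668 in DESeq2). The part of this marker difference in the members' values was not tested. Zic1, a marker of classical brown fat, was at 0 to 3 counts per library. Keratin and Epcam markers of epithelium were too low to test, at 2 to 238 counts in PexRAP-AKO replicate 6 and 0 to 31 in the other 9 libraries. Control replicate 8 held the most muscle marker RNA, with a mean marker level of 5.80 log2 CPM, and PexRAP-AKO replicate 6 the most T cell and B cell marker RNA, at 3.73 and 3.84. Without these 2 libraries, Tmem135 was at 0.32 and Mff at 0.21 on the log2 scale.

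None of the 10 transcripts passed an adjusted p of 0.05 in the edgeR test, in which 15 of 14913 genes were called (0.101%), 0.0939% of the genes as higher. By unadjusted p under 0.05, 4 of the 10 were higher in PexRAP-AKO (Tmem135, Mff, Dnm1l and Mief2) and 0 were lower. Across all tested genes, 9.01% were higher and 6.44% lower by that rule. Among the members, only Tmem135 and Mff had all 5 PexRAP-AKO libraries above all 5 Control libraries in TMM-scaled CPM. This arrangement was found in 2.08% of tested genes. The reverse arrangement was found in 1.33% of them and in 0 members, so that 3.41% of genes had groups apart in either direction. Both also passed in DESeq2's Wald test, which called 3.75% of the genes it adjusted. Of the 10 fold changes, 9 were above 1, compared with 49.8% of all tested genes. The median log2 fold change was 0.13 over the members, 0.21 over the 6 fission-side transcripts and 0.08 over the fusion GTPases and Oma1, with -0.00065 over all tested genes.

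**Figure D1:**
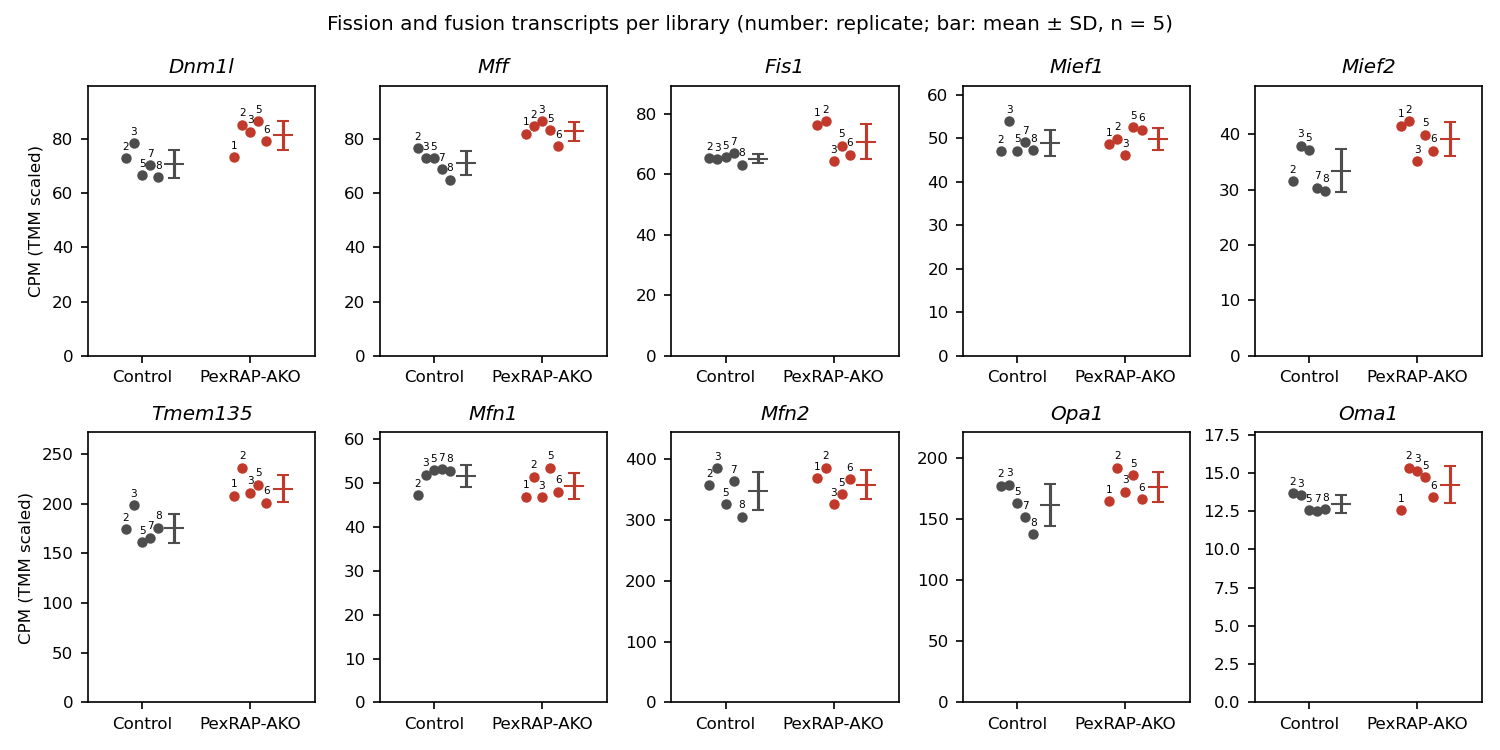
Level of each of the 10 transcripts in every library (CPM, linear axes), with Control and PexRAP-AKO libraries as points and the mean and SD of each group (n = 5). The groups do not overlap for Mff and Tmem135, and they overlap for the other 8.

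The upstream sequences of 4 members are shown first, because Tmem135 and Mff separated the groups most clearly, Mief2 lies near the deleted gene, and Opa1 represents the fusion GTPases. They are the bases directly before the outermost annotated start in RefSeq (GRCm38.p6), on the gene's own strand and 5′ to 3′. The Tmem135 stretch (chr7:89404223-89404354, minus strand) is shorter, because the first exon of Fzd4 begins beyond it on the other strand. The others are Mff (chr1:82724640-82724889, plus strand), Mief2 (chr11:60728148-60728397, plus strand) and Opa1 (chr16:29579084-29579333, plus strand). Capitals mark matches to the motifs searched.
Tmem135: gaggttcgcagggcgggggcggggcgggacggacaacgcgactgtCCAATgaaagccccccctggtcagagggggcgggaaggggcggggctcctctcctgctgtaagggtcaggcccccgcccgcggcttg
Mff: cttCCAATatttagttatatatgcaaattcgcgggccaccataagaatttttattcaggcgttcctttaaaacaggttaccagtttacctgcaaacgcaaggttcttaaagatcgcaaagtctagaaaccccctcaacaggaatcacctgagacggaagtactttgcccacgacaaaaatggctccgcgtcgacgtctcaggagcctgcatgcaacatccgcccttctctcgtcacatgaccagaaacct
Mief2: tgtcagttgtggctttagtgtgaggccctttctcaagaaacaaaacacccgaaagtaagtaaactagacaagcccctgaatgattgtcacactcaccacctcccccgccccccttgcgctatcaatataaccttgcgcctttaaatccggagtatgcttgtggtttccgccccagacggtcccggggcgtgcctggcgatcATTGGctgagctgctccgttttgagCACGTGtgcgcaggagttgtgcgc
Opa1: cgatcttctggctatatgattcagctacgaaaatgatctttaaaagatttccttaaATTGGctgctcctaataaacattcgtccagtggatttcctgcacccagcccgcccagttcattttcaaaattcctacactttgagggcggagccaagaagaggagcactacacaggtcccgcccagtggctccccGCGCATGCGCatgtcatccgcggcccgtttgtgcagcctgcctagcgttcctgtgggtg

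Motifs were searched on both strands of the 250 bases before each annotated start, in 15 windows of the 10 members and in all 32851 RefSeq windows. The CCAAT box (CCAAT, or ATTGG on the other strand) was in 33.8% of all windows and in 7 of the 15 member windows. These belonged to 7 members and included each of the 4 shown. The NRF1 core (GCGCA, then any base, then GCGC) is found before many nuclear genes for mitochondrial proteins. It was in 3.74% of all windows and in 2 of the 15 member windows, those of Opa1 and Oma1. In Opa1 it lay 59 to 50 bases before the start. The ETS core CCGGAAG, read by GABPA, was in 6.91% of all windows and in 3 of the 15 member windows (Fis1, Mfn1 and Mief1). The E-box CACGTG was in 6.02% of all windows and in that of Mief2, 24 to 19 bases before the start. The ERR half-site AAGGTCA (4.08% of all windows) and the DR1 element (AGGTCA, then any base, then AGGTCA; 0.0335%), which can overlap it, had no match in the member windows. Tmem135 and Mff thus shared the CCAAT box, the most common of the motifs, and none of the others. In Mff it lay 247 to 243 bases before the outermost start, and the window of its other annotated start held no match.

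Tmem135 (ENSMUSG00000039428, chr7:89139714-89404222, minus strand) had the largest difference of the 10. It stood at 174, 198, 161, 166 and 176 CPM in Control replicates 2, 3, 5, 7 and 8, and at 208, 236, 211, 219 and 201 CPM in PexRAP-AKO replicates 1, 2, 3, 5 and 6. The highest Control library, replicate 3, was below the lowest PexRAP-AKO library, replicate 6. The means were 175 ± 14.4 and 215 ± 13.4 CPM (SD, n = 5 each), a log2 fold change of 0.30 (SE 0.07, 95% interval 0.14 to 0.45). The edgeR test gave an unadjusted p of 0.00137 and an adjusted p of 0.123, and DESeq2 an adjusted p of 0.00548.

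Mff (ENSMUSG00000026150, chr1:82724890-82752394, plus strand) encodes the tail-anchored receptor that recruits DRP1 to mitochondria and peroxisomes. Its levels were 76.4, 72.7, 72.7, 68.6 and 64.8 CPM in Control and 81.8, 84.7, 86.4, 83.0 and 77.2 CPM in PexRAP-AKO, in the same order of replicates. With TMM scaling the groups were adjacent but separate, and the highest Control library was replicate 2 and the lowest PexRAP-AKO library replicate 6. By library totals alone the groups overlapped. Control replicate 2 (898 of 11593437 counts) then lay above PexRAP-AKO replicate 6 (1093 of 14151144). Means of 71.0 ± 4.42 and 82.6 ± 3.47 CPM (SD, n = 5 each) gave a log2 fold change of 0.22 (SE 0.06, interval 0.09 to 0.34). The adjusted p was 0.142 in edgeR (unadjusted p = 0.00227) and 0.0290 in DESeq2. Of its exonic bases, 195 are shared with the antisense gene C430014B12Rik, whose reads cannot be told apart without strand.

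Dnm1l (ENSMUSG00000022789, chr16:16312230-16358959, minus strand), the fission GTPase itself, was at 73.0, 78.5, 66.7, 70.4 and 65.8 CPM in Control and at 73.3, 85.3, 82.7, 86.5 and 79.1 CPM in PexRAP-AKO. In 4 of 5 PexRAP-AKO libraries it exceeded every Control library, and replicate 1 lay among the Controls. The means were 70.9 ± 5.16 and 81.4 ± 5.33 CPM (SD, n = 5 each). The log2 fold change was 0.20 (SE 0.07, interval 0.06 to 0.34), with an adjusted p of 0.200 in edgeR (unadjusted p = 0.0101) and 0.0954 in DESeq2. Dnm1l shares 243 exonic bases with the antisense gene Gm49521.

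Mief2 and Mief1 encode paralogous receptors, MiD49 and MiD51, that hold DRP1 at the outer membrane. Mief2 (ENSMUSG00000018599, chr11:60728398-60732951, plus strand) was at 31.6, 37.9, 37.2, 30.3 and 29.8 CPM in Control and at 41.5, 42.3, 35.1, 39.9 and 37.0 CPM in PexRAP-AKO. Here 3 of 5 PexRAP-AKO libraries lay above all Controls, and replicates 3 and 6 lay among them. Means of 33.4 ± 3.88 and 39.2 ± 3.06 CPM (SD, n = 5 each) gave a log2 fold change of 0.23 (SE 0.09, interval 0.04 to 0.42) and an edgeR adjusted p of 0.242 (unadjusted p = 0.0215). Mief1 (ENSMUSG00000022412, chr15:80234018-80253371, plus strand) was at 47.0, 54.0, 47.2, 49.2 and 47.3 CPM in Control and at 48.7, 49.9, 46.1, 52.7 and 52.0 CPM in PexRAP-AKO. Its groups overlapped throughout, with a log2 fold change of 0.03 (SE 0.06, interval -0.10 to 0.16, edgeR adjusted p = 0.870). Mief1 shares 213 exonic bases with AC140267.1 on the same strand.

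Fis1 (ENSMUSG00000019054, chr5:136953275-136966234, plus strand), the small tail-anchored adaptor, was at 65.4, 64.9, 65.6, 67.0 and 63.2 CPM in Control and at 76.4, 77.6, 64.3, 69.5 and 66.5 CPM in PexRAP-AKO. The Control libraries lay close together, and the PexRAP-AKO libraries spread upward from the same level, with replicates 1 and 2 highest. Fis1 means were 65.2 ± 1.36 and 70.9 ± 5.90 CPM (SD, n = 5 each), a log2 fold change of 0.12 (SE 0.06, interval -0.01 to 0.25, edgeR adjusted p = 0.370).

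Among the fusion GTPases and Oma1, no transcript reached an unadjusted p of 0.05. Mfn2 (ENSMUSG00000029020, chr4:147873599-147904704, minus strand), the mitofusin that also tethers mitochondria to other organelles, was at 357, 385, 326, 364 and 306 CPM in Control and at 368, 386, 326, 342 and 367 CPM in PexRAP-AKO. The groups covered nearly the same range, with a log2 fold change of 0.04 (SE 0.08, interval -0.13 to 0.22, edgeR adjusted p = 0.844). Mfn1 (ENSMUSG00000027668, chr3:32529465-32579239, plus strand), its paralog, was at 47.3, 51.9, 52.9, 53.2 and 52.8 CPM in Control and at 46.9, 51.4, 46.8, 53.5 and 48.0 CPM in PexRAP-AKO. It was the member with a fold change below 1, at -0.07 on the log2 scale (SE 0.06, interval -0.19 to 0.06, edgeR adjusted p = 0.623). Control replicate 2 stood apart from the other 4 Controls and lay among the low PexRAP-AKO libraries.

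Opa1 (ENSMUSG00000038084, chr16:29579334-29654884, plus strand), the inner membrane fusion GTPase that also shapes cristae, was at 177, 178, 163, 151 and 137 CPM in Control and at 164, 192, 172, 186 and 166 CPM in PexRAP-AKO. Controls 2 and 3 overlapped the PexRAP-AKO range, and Controls 5, 7 and 8 lay below it. Its means were 161 ± 17.3 and 176 ± 12.2 CPM (SD, n = 5 each), a log2 fold change of 0.13 (SE 0.08, interval -0.05 to 0.30, edgeR adjusted p = 0.495). Oma1 (ENSMUSG00000035069, chr4:103313812-103371868, plus strand) was at 13.7, 13.5, 12.6, 12.5 and 12.6 CPM in Control and at 12.5, 15.3, 15.1, 14.7 and 13.4 CPM in PexRAP-AKO. In 3 of 5 PexRAP-AKO libraries Oma1 exceeded all Controls, with a log2 fold change of 0.13 (SE 0.08, interval -0.04 to 0.30, edgeR adjusted p = 0.449).

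**Figure D2:**
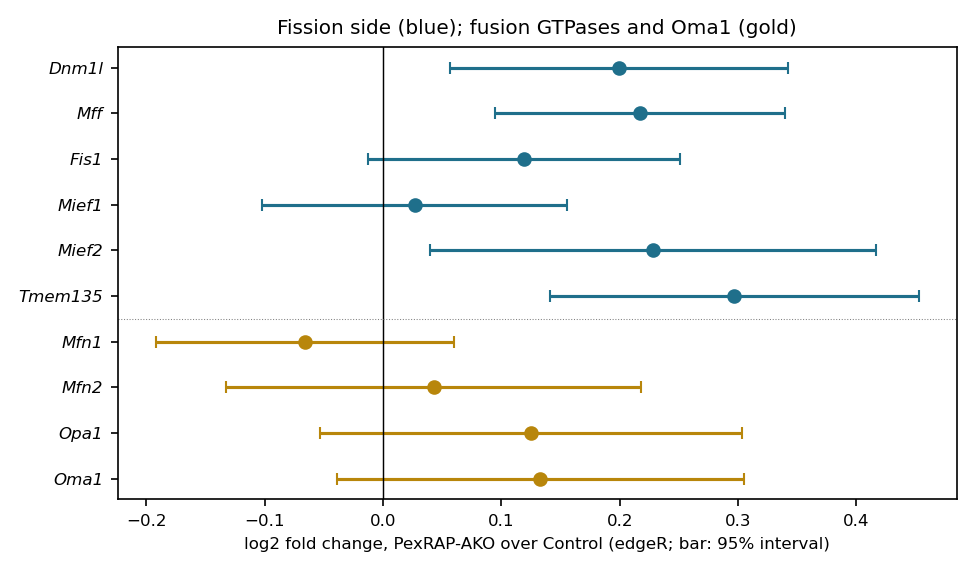
Log2 fold change of each of the 10 transcripts, PexRAP-AKO over Control, with its 95% interval from the edgeR fit, the fission side and the fusion side in separate colours. The intervals of Tmem135, Mff, Dnm1l and Mief2 lie above 0, and those of the other 6 include 0.

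In percent, the intervals bound what these libraries could show. For Tmem135 the level was 22.8% higher in PexRAP-AKO (95% interval 10.3% to 36.9%). The interval reached from -12.4% to 4.26% for Mfn1, from -8.75% to 16.3% for Mfn2 and from -6.81% to 11.4% for Mief1. For Fis1 it reached from -0.851% to 19.0%. A change as large as the Tmem135 estimate lies outside each of these intervals. The intervals of Opa1 (-3.61% to 23.4%) and Oma1 (-2.63% to 23.5%) include such a change.

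Within each library, 5 ratios between members were compared, since a ratio does not depend on how libraries are scaled. Mief2 over Mief1 was -0.56 ± 0.14 (log2, SD) in Control and -0.35 ± 0.11 in PexRAP-AKO, a difference of 0.21. Its exact two-sided permutation p was 0.0476, and 0.238 after Benjamini-Hochberg adjustment over the 5 ratios. The other 4 ratios had exact permutation p-values from 0.175 to 0.992. Mff over Fis1 differed by 0.10, Mfn2 over Mfn1 by 0.11, Dnm1l over Opa1 by 0.07 and Oma1 over Opa1 by -0.0012. The groups overlapped in all 5 ratios, and none passed the adjusted threshold.

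Per kilobase of annotated exon, Mfn2 was the most abundant member in Control, at 66.9 ± 6.03 CPM per kb (SD, n = 5), and Fis1 followed at 38.1 ± 0.796. Tmem135 (23.1 ± 1.91) and Opa1 (20.5 ± 2.20) came next and overlapped each other. Dnm1l (13.6 ± 0.992) and Mief2 (12.3 ± 1.43) also overlapped, as did Mfn1 (8.44 ± 0.403) and Mff (7.28 ± 0.453). Oma1 (6.06 ± 0.270) and Mief1 (6.04 ± 0.364) were lowest and overlapped. In PexRAP-AKO, Mff was at 8.47 and Mfn1 at 8.07 CPM per kb, the neighbouring pair whose order was exchanged.

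The members tended to be low or high in the same libraries. Control replicate 8 was the lowest of the 10 libraries for Dnm1l, Mff, Fis1, Mief2, Mfn2 and Opa1, and PexRAP-AKO replicate 2 the highest for Fis1, Mief2, Tmem135, Mfn2, Opa1 and Oma1. TMM factors ran from 1.001 to 1.062 in Control and from 0.933 to 1.003 in PexRAP-AKO. The smallest was that of PexRAP-AKO replicate 2, and Control replicate 8 was at 1.03. A smaller factor raises CPM relative to library totals. Scaled by library totals alone, 7 members had a fold change above 1, against 9 with TMM. The median log2 fold change of all genes was then -0.07. By unadjusted p under 0.05 in edgeR, 2 members were higher and 1 lower in that fit. The part of scaling in the pattern over libraries was not tested. Brown adipocyte markers also varied among libraries: their summed level ran from 489 to 2771 CPM in Control and from 1028 to 3511 CPM in PexRAP-AKO. Of 14 tested, 13 had a fold change above 1, and none passed in edgeR or DESeq2 (4 were higher and 1 lower by unadjusted p in edgeR). By that unadjusted rule, 9.01% of all tested genes were higher and 6.44% lower. Ucp1, the thermogenic uncoupling protein, ran from 28.6 to 1159 CPM in Control and from 94.1 to 1603 CPM in PexRAP-AKO. Control replicates 8 and 7 had the lowest brown marker scores, at 3.85 and 4.19 log2 CPM, and PexRAP-AKO replicates 5 and 3 the highest, at 6.81 and 6.78. PexRAP-AKO replicate 2, highest for 6 members, had an intermediate score of 6.21.

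With the brown marker score as a covariate in the fit, the log2 fold change was 0.28 for Tmem135, 0.16 for Mff, 0.14 for Dnm1l, 0.17 for Mief2 and 0.15 for Fis1. That of Opa1 was 0.03, against 0.13 without the covariate. The members with an unadjusted p under 0.05 numbered 2 in that fit (Tmem135 and Mff) and 4 without the covariate, and Dnm1l had an unadjusted p of 0.0740 in edgeR. The brown list itself holds genes of mitochondrial proteins, among them Ucp1, Cox8b and Cox7a1. The brown covariate therefore cannot tell brown cell content from mitochondrial transcript level. Skeletal muscle markers ran the other way, with 0 of 11 fold changes above 1 and 7 lower by unadjusted p in edgeR. Their summed levels were 16.2 to 1311 CPM in Control and 10.5 to 120 CPM in PexRAP-AKO. With the muscle score as a covariate, the values were 0.25 for Tmem135, 0.20 for Mff, 0.16 for Dnm1l and 0.18 for Mief2, and 3 members had an unadjusted p under 0.05. Of 8 endothelial markers, 0 had a fold change above 1 and 4 were lower by unadjusted p, and their summed levels were 830.2 to 1039.5 CPM in Control and 596 to 835 CPM in PexRAP-AKO. Of 6 Schwann cell markers, 5 had a fold change below 1, 4 were lower by unadjusted p in edgeR and 2 passed as lower in DESeq2. Among all tested genes, 6.44% were lower by unadjusted p in edgeR. DESeq2 called 110 of the 11081 genes it adjusted lower. All 8 tested T cell markers had a fold change above 1, and 4 were higher by unadjusted p in edgeR, against 9.01% of all tested genes. The part of endothelial, Schwann cell, macrophage, progenitor, T cell and B cell RNA in the members' values was not tested.

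**Figure D3:**
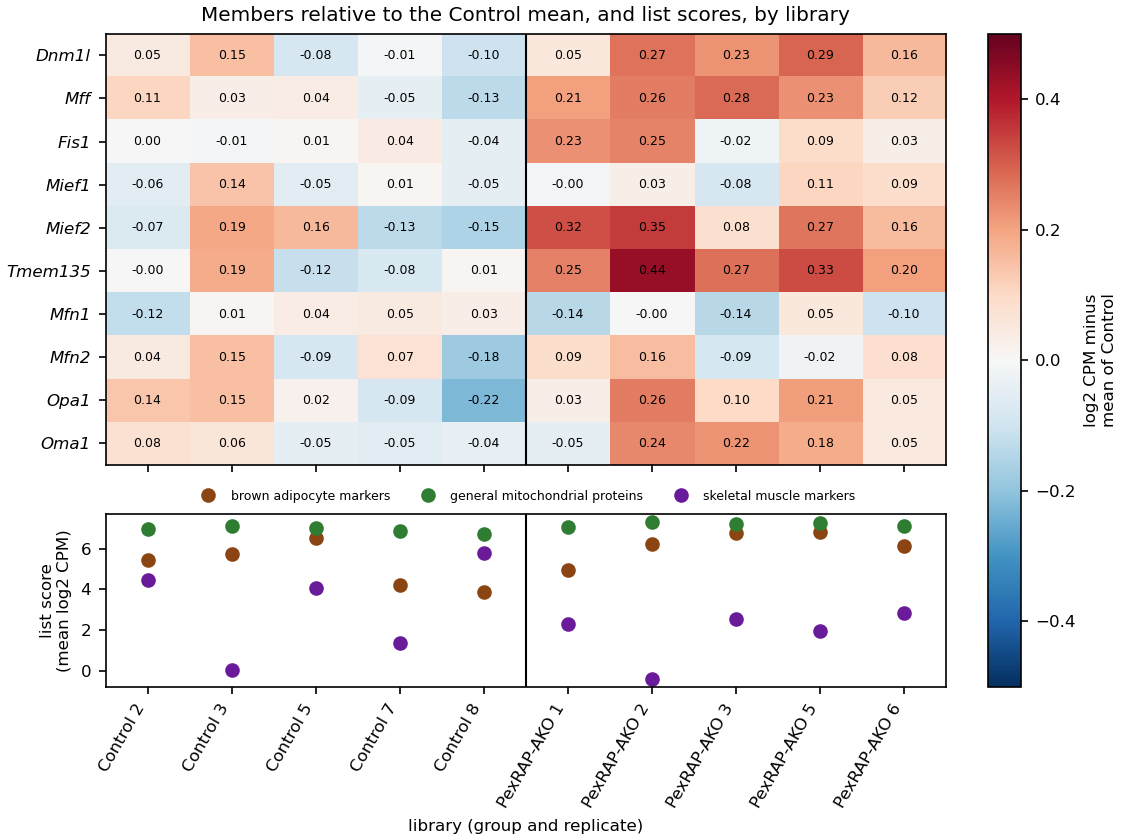
Difference of each transcript in each library from its Control mean (log2 CPM, colour and number), above the scores (mean log2 CPM) of brown adipocyte markers, general mitochondrial proteins and skeletal muscle markers in the same libraries. Control replicate 8 holds the lowest value for 6 members, and PexRAP-AKO replicate 2 the highest for 6.

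Mief2 lies 97.7 kb before Dhrs7b on chromosome 11, so the protein-coding genes around the deleted locus were examined. Within 200 kb of Dhrs7b, 9 of 10 protein-coding genes were tested and none passed the edgeR threshold. Other gene types there were not examined. By unadjusted p under 0.05, 2 were higher (Mief2 and Natd1), against 9.01% of all tested genes. The median log2 fold change of the 9 neighbours was 0.03, with a range of -0.07 to 0.23. Mief2 was at the top of that range, together with Natd1 at 0.22 (means ± SD of 35.7 ± 2.31 and 41.5 ± 1.73 CPM over 5 Control and 5 PexRAP-AKO libraries, edgeR adjusted p = 0.152). The groups did not overlap for Natd1. Tmem11, a mitochondrial membrane protein gene that starts 4.26 kb beyond Dhrs7b, was at 0.16 (edgeR adjusted p = 0.438).

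Other mitochondrial genes were taken from 7 further lists, in which no gene passed the edgeR threshold and 7 passed in DESeq2. Some lists hold genes of mitochondrial shape, and others those of mitophagy, transport, biogenesis or general mitochondrial proteins. For comparison with the counts below, 49.8% of all tested genes had a fold change above 1. By unadjusted p under 0.05, 9.01% of them were higher and 6.44% lower. The MICOS complex, which holds the crista junctions, and its outer membrane partners had 11 of 11 fold changes above 1, 8 with an unadjusted p under 0.05, and a median of 0.32. Immt, the core MICOS subunit, was at 223 ± 19.9 CPM in Control and 279 ± 23.3 in PexRAP-AKO, and the groups did not overlap. Its log2 fold change was 0.32 (SE 0.08, adjusted p = 0.139 in edgeR and 0.0111 in DESeq2). Chchd3, another subunit, was at 141 ± 18.8 and 180.1 ± 14.8 CPM, also without overlap (edgeR adjusted p = 0.146). Mtx2, a metaxin of the outer membrane, had means of 44.5 ± 4.91 and 58.9 ± 7.92 CPM without overlap (edgeR adjusted p = 0.137). Micos13 had 85.9 ± 17.9 and 117 ± 9.76 CPM with overlap (edgeR adjusted p = 0.172). In DESeq2, these 4 MICOS genes passed, compared with 2.75% of genes called higher in all.

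The proteases and scaffolds of OPA1 processing had 8 of 10 fold changes above 1, 4 with an unadjusted p under 0.05, and a median of 0.14. The prohibitins, ring-forming scaffolds of the inner membrane, led this list. Phb was at 32.2 ± 3.21 CPM in Control and 43.6 ± 5.75 in PexRAP-AKO with no overlap (edgeR adjusted p = 0.107, DESeq2 adjusted p = 0.00767). Phb2 was at 103 ± 10.1 and 126 ± 11.2 CPM (edgeR adjusted p = 0.166, DESeq2 adjusted p = 0.0437). The AAA protease gene Afg3l2 had a log2 fold change of 0.24 and the rhomboid protease gene Parl one of 0.17, with edgeR adjusted p-values of 0.261 and 0.321.

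Accessory fission and fusion factors had 13 of 18 tested fold changes above 1 and a median of 0.14, with 5 higher and 1 lower by unadjusted p. Gdap1 and Mtfr2 were too low to test. The 1 lower gene was Inf2, a formin that assembles actin at fission sites, at 66.6 ± 5.05 CPM in Control and 54.3 ± 7.43 in PexRAP-AKO (log2 fold change -0.29, SE 0.09, edgeR adjusted p = 0.188). Slc25a46, an outer membrane carrier-family protein, was at 76.4 ± 2.62 and 86.1 ± 5.50 CPM without overlap (edgeR adjusted p = 0.188). Marchf5, the ubiquitin ligase that acts on fission receptors, was at 134 ± 7.88 and 149 ± 3.19 CPM, also without overlap (edgeR adjusted p = 0.225). Mtch2, an outer membrane insertase, was at 242 ± 38.1 and 308 ± 34.2 CPM (edgeR adjusted p = 0.200).

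General mitochondrial proteins had 15 of 15 fold changes above 1, 14 of them with an unadjusted p under 0.05, and a median of 0.24, above that of the 10 members. Among them the import receptor gene Tomm70 separated the groups, at 106 ± 5.73 and 120.3 ± 2.39 CPM (edgeR adjusted p = 0.160, DESeq2 adjusted p = 0.0293). The respiratory subunit gene Uqcrc2 was at 220.4 ± 40.9 and 295 ± 38.8 CPM (edgeR adjusted p = 0.190). The share of counts from mitochondrially encoded genes was 2.88% to 3.45% in Control and 2.53% to 4.72% in PexRAP-AKO (exact two-sided permutation p = 0.175). Biogenesis regulators had 9 of 14 fold changes above 1 and a median of 0.08. Of these, Tfam, whose product packages mitochondrial DNA and takes part in its transcription, was at 32.6 ± 1.11 and 37.5 ± 1.92 CPM without overlap (edgeR adjusted p = 0.152). The coactivator gene Ppargc1a was at 26.2 ± 4.77 and 35.3 ± 6.58 CPM (edgeR adjusted p = 0.225).

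Mitophagy receptors and regulators had 3 of 7 fold changes above 1 and a median of -0.02, with Fundc1 at 0.18 and Pink1 at -0.21 (edgeR adjusted p = 0.257 and 0.436). The groups did not overlap for Fundc1 and did for Pink1. The transport adaptors Rhot1, Rhot2, Trak1 and Trak2 had a median of 0.09 and no unadjusted p under 0.05. The brown marker score, which itself includes genes of mitochondrial proteins, was also used as a covariate here. The median was then 0.18 for MICOS, 0.14 for general mitochondrial proteins and 0.11 for OPA1 processing. In that fit 6 MICOS genes, 3 general mitochondrial genes and 2 of OPA1 processing were higher by unadjusted p, and with the muscle score 6, 7 and 2 were. Leaving out single libraries gave 6 to 9 MICOS genes and 8 (without Control replicate 7 or PexRAP-AKO replicate 2) to 14 general mitochondrial genes.

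**Figure D4:**
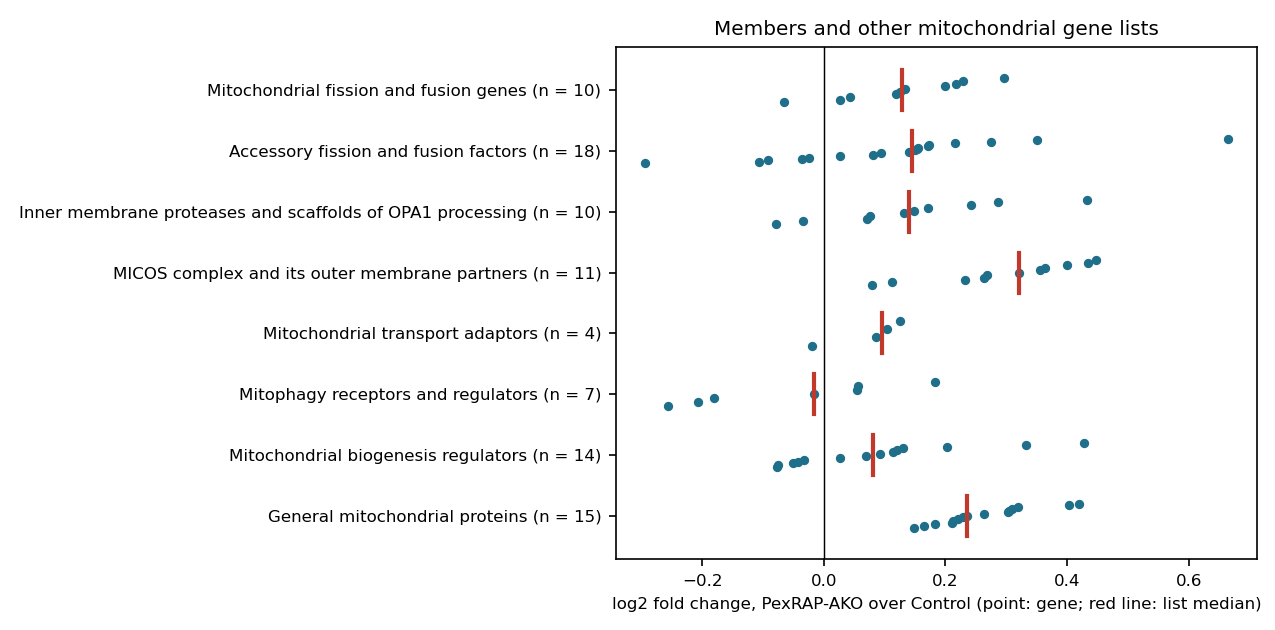
Log2 fold change of every tested gene (points) and the median (bar) for the 10 transcripts and the other mitochondrial lists, PexRAP-AKO over Control. All 11 MICOS genes and all 15 general mitochondrial genes lie above 0, and the median of the mitophagy list is -0.02.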

How the data were processed

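Per the labels, RNA-seq gave 5 Control and 5 PexRAP-AKO libraries of inguinal fat from male mice. The authors deposited raw read counts per gene, made with STAR 2.0.4b, Subread, featureCounts and edgeR, per the submitters' processing notes. The genome build, annotation and strand setting were not given in the sources used here. In all, the table held 40724 rows for 40501 identifiers, and 117 repeated identifiers with identical counts were kept once. Coordinates and exon lengths came from GENCODE M21 (GRCm38), which held 99.6% of identifiers.

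Counts were scaled by TMM and filtered with filterByExpr (minimum count 10, minimum total 15), leaving 14913 genes. The main test was the edgeR 4.0.16 quasi-likelihood F test (robust, no covariate, R 4.3.3) with Benjamini-Hochberg adjustment over all genes tested and a threshold of 0.05. The SE of a log2 fold change was its size over √F. Marker scores are means of log2 CPM (prior count 2). Alternatives used DESeq2 1.42.0, limma 3.58.1, other scalings and filters, covariates, a replicate block and left-out libraries. The scripts were tested on simulated data with changes of 1.5-fold, 2-fold and 4-fold. The edgeR test recovered 36 of 65, 44 of 64 and 63 of 64 of these, and 12 of its 155 calls were false. Changes as small as those of the members (at most 1.23-fold, Tmem135) were not simulated. Replicate pairs within a group differed beyond sampling noise (chi-square per degree of freedom of 7.75 or more).

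The 10 members, and all lists, were chosen with earlier results of these data known. The text names the members, Dhrs7b, up to 4 genes of each pathway list by smallest p, and markers. Natd1 and Tmem11 were named after their values were seen. Of 186 listed symbols 186 were found. Marchf5, whose symbol had become a date, was matched by identifier. A further list is not reported here.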

Additional observations from a re-analysis of the deposited data

Results flagged for a closer look

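In each group of 5 libraries, the highest and lowest values of the members, named genes and marker scores were compared with their nearest neighbour, using a critical gap of 0.71 of the range. Of 128 groups of values, 12 held such a library, where chance gives about 6.4. Among the members this was Mfn1 in Control replicate 2, at 5.57 log2 CPM against 5.70 to 5.74 in the other 4 Controls. Control replicate 2 was also high for Rhot1 (6.40) and Tfam (5.12). Control replicate 8 was low for Fundc1 (4.24) and Ppargc1a (4.17), and high for the B cell (2.88) and endothelial (6.77) marker scores. Control replicate 5 was low for Bnip3 (6.45) and the white adipocyte score (11.17). Among PexRAP-AKO libraries, replicate 2 had a low muscle score (-0.40), replicate 6 a high T cell score (3.73) and replicate 3 a low Schwann cell score (4.22). All are in log2 CPM.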

How the results depend on the processing

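The log2 fold changes of the 10 members were recomputed under 22 alternatives. Of 220 values, 210 kept their direction and side of the threshold, 2 newly passed it (Mff and Tmem135 in DESeq2) and 8 changed sign. Tmem135 ran from 0.23 to 0.35 (adjusted p 0.00548 to 0.443), Mff from 0.15 to 0.24, Dnm1l from 0.13 to 0.24 and Mief2 from 0.13 to 0.28. Scaling by library totals moved the median of all genes to -0.07, left 7 members above 0 (2 higher and 1, Mfn1, lower by unadjusted p, and 6 general mitochondrial genes higher), and gave -0.0431 for Mief1 and -0.0275 for Mfn2. The muscle covariate gave -0.00454 for Mief1 and -0.0159 for Mfn2. Without PexRAP-AKO replicate 6 and Control replicate 8, Mief1 was at -0.00063 and Mfn2 at -0.0093. Leaving out single libraries moved Mfn2 from -0.0021 (without Control replicate 8) to 0.0820 (without Control replicate 3).

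Members called numbered 0 in the main test and 2 in DESeq2, and pathway genes called 0 and 7. Of all genes, 15 were called in the main test, 415 in DESeq2, 107 in limma with sample weights, 26 without the low-count filter, 6 with the brown and 6 with the muscle covariate, and 5 without PexRAP-AKO replicate 6 and Control replicate 8. Leaving out 1 library gave 3 (without Control replicate 8) to 58 (without PexRAP-AKO replicate 1). The Oma1 over Opa1 ratio ranged from -0.0315 to 0.0449 on leaving out 1 library and was 0.0444 without PexRAP-AKO replicate 6 and Control replicate 8. The cause of these shifts was not tested.

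Numbers 2, 3 and 5 occur in both groups, but same-numbered libraries deviated together for number 5 (r = 0.36) and not for 2 and 3 (r of -0.02 and -0.08), and none correlated best with its own number. A fit with the replicate block on those 6 libraries called 3 genes and 0 members (2 by unadjusted p, Tmem135 and Dnm1l, against 4 in all libraries), with Tmem135 at 0.32, Mfn2 at -0.0243 and Oma1 over Opa1 at 0.10.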
